A study of Mus musculus with 7 samples.

Results

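The genes that build, attach, alter and remove sialic acid were followed through the immune and tumour cells of mice with CT-2A glioma. The members are 31 listed genes, 20 of them sialyltransferases, among 55491 gene rows of the deposited matrix. Each was read as unique molecular identifiers (UMIs, counts of captured RNA molecules) per 1e6 UMIs of a cell group, written CPM here. CT-2A, a mouse glioma line, was injected into the brain of mice aged 8 to 12 weeks, and all mice received tamoxifen (2.5 mg per injection, daily from day 7 to day 21 and every other day after that). The 4 mice called KO were Sall1CreERT2 x Siglecefl/fl, and the 3 called WT were Siglecefl/fl without the Cre. Sall1 is a transcription factor of microglia, so the inducible Cre is meant to delete Siglece in those cells, and both groups carry the floxed Siglece alleles. The driver came from a B6;129 stock and the floxed allele from B6.129P2. Live cells stained for CD45, CD11b or both were sorted from frozen and thawed tumour-bearing hemispheres, so the tumour cells here are those that passed a gate for immune cells. 1 library of 5-prime single-cell RNA was made per mouse.

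Sialic acid caps many glycan chains of vertebrate cells and is what Siglec receptors bind. Siglec-E, the product of Siglece, is an inhibitory Siglec of mouse myeloid cells. Gne starts the synthesis from UDP-GlcNAc, Nans and Nanp finish the sugar, Cmas activates it to CMP-sialic acid in the nucleus and Slc35a1 carries it into the Golgi. Sialyltransferases then place it in an alpha-2,3 bond (St3gal genes), in an alpha-2,6 bond to galactose (St6gal genes) or to N-acetylgalactosamine (St6galnac genes), or in an alpha-2,8 bond to another sialic acid (St8sia genes). Neu genes encode sialidases, which remove it. Cmah hydroxylates CMP-sialic acid to the glycolyl form, and Siae removes acetyl groups from it.

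The libraries held 28644 cells and 207882564 UMIs, between 1410 and 5856 cells per mouse, with a median of 4479 to 9554 UMIs per cell. 460 barcodes occurred in more than 1 library (926 cells, 3.23%). The 23 cell type names of the deposited cell table were joined into 9 classes. Marker genes were highest in the class of their name in microglia for 7 of 8, in B cells for 4 of 5, in NK cells for 5 of 5, in T cells for 6 of 7 and in plasmacytoid dendritic cells for 6 of 6, but in monocyte-derived cells for only 4 of 8. The name tumour or stromal cells covered 384 cells with a median of 20569 UMIs, against 5589.5 in immune cells. Of 12 glioma or neural markers, 5 (Vim, Nes, Sox2, Sox9 and Cspg4) were highest there and 7 were at 0, among them Gfap, Olig1, Olig2 and Fabp7. Of 8 fibroblast or mural markers, 6 were highest there. Siglece itself had 3 UMIs in KO microglia (2, 1, 0 and 0) and 46 in WT microglia (20, 19 and 7), or 0.193 of the WT level when pooled (0.0384 to 0.600). Of 8 microglia markers, 1 was higher in KO microglia when pooled, and their sums overlapped (5203.2 to 7869.1 CPM in KO, 7191.6 to 9888.7 in WT). Their part in the Siglece difference was not tested. All intervals on UMIs are at 95% and cover counting error only.

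Of the 31 members, 22 had more than 500 UMIs over all cells, St6galnac2 had 104 in its 2 gene rows, 4 had 1 to 10 (St6galnac1 8, St6galnac5 4, Neu4 3, St8sia3 1) and 4 had none (St6gal2, St8sia2, St8sia5 and Neu2). UMIs at the 5-prime end are not scaled to transcript length, so levels are compared between cells for 1 gene and not between genes. Cell type names are taken to rest on the expression of the same cells, although their origin is not given. The levels by class are therefore a description, with no test.

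**Figure D1:**
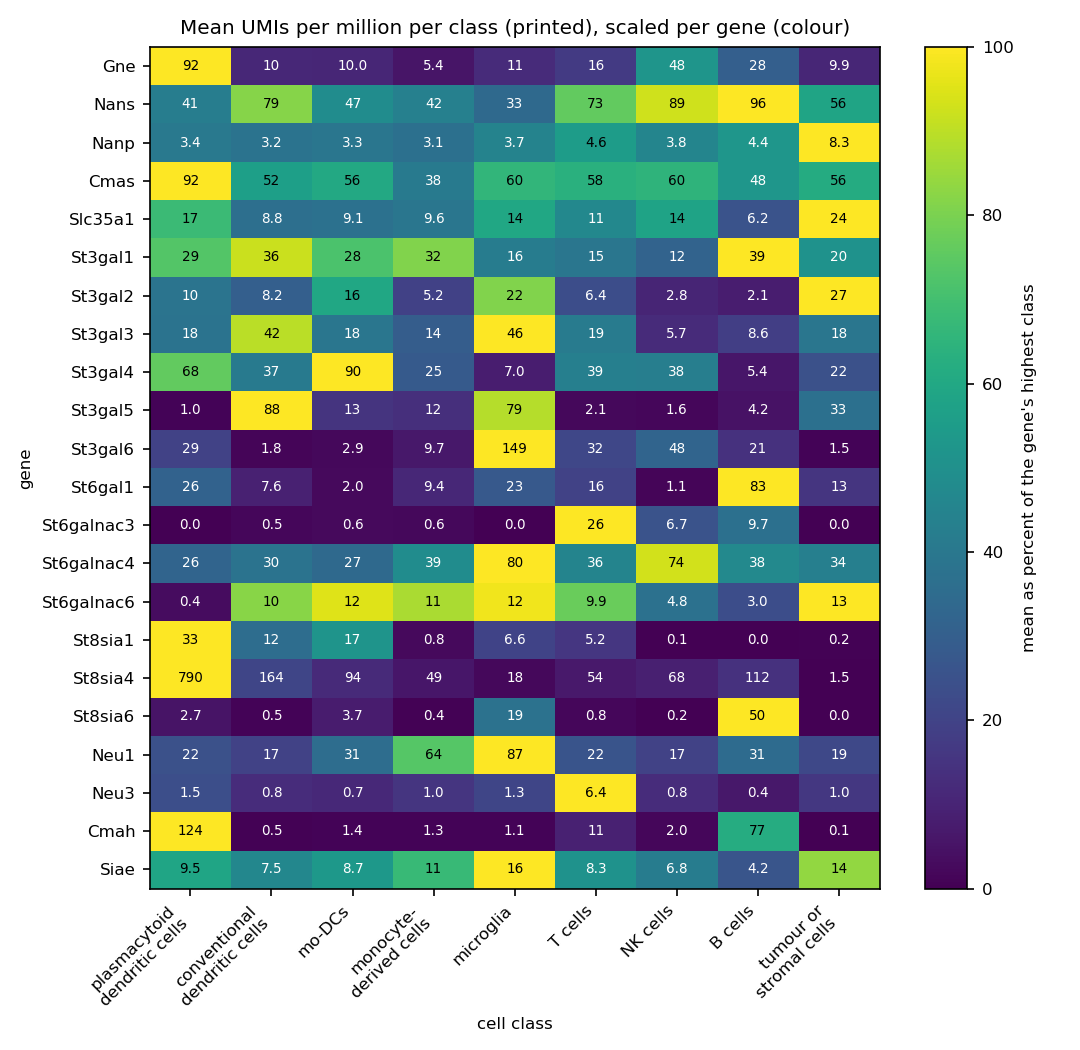
Mean CPM of the 22 members with more than 500 UMIs (rows) in the 9 classes (columns), over mice with at least 20 cells of the class. Numbers are the means and colour is the mean as a percent of the highest class of that gene. St8sia4, Cmah, Gne, Cmas and St8sia1 peak in plasmacytoid dendritic cells, and St3gal6 and Neu1 in microglia.

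Plasmacytoid dendritic cells held the highest level of 5 members: Gne, Cmas, Cmah, St8sia1 and St8sia4. St8sia4, the polysialyltransferase, which adds long alpha-2,8 chains, was at 790 ± 120 CPM there (mean ± SD, n = 7 mice) and at 164 ± 23.7 in conventional dendritic cells, the next class, with no overlap between mice. Cmah was at 124 ± 19.4 CPM in plasmacytoid dendritic cells and 76.6 ± 6.49 in B cells (n = 6). Its values in the 7 mice were 124, 101, 160, 123 (KO replicates 1 to 4), 128, 103 and 131 (WT replicates 1 to 3). In both classes every mouse lay above every mouse of the next class, and T cells followed at 11.3 ± 10.1 CPM. Gne was at 91.6 ± 17.9 CPM against 47.9 ± 15.6 in NK cells, and Cmas at 91.9 ± 11 against 60.5 ± 10.6 in microglia (n = 6), each apart from the next class. St8sia1, the synthase of ganglioside GD3, was highest there at 32.6 ± 7.55 CPM and overlapped the values of mo-DCs (16.9 ± 7.02). The other genes of synthesis and transport did not share this order. Nans was at 40.8 ± 7.30 CPM in plasmacytoid dendritic cells and 96.5 ± 45.8 in B cells, Nanp at 3.37 ± 3.48 and highest in tumour or stromal cells (8.32 ± 2.83, n = 5), and Slc35a1 at 16.6 ± 6.32 and highest in tumour or stromal cells (24.3 ± 2.76), where mice overlapped.

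The bases before the start sites of these 5 genes are shown because the genes peak in 1 class whose lineage factor, the E protein Tcf4, binds E-boxes. 2 E-box cores were searched on both strands in the 250 bases before the most upstream RefSeq start (GRCm38.p6, the build the labels call mm10). These were CAGGTG and CAGCTG, and no site can match both. Capitals mark the matches, and CACCTG is CAGGTG on the other strand.
Gne, chr4:44084178-44084427, minus strand: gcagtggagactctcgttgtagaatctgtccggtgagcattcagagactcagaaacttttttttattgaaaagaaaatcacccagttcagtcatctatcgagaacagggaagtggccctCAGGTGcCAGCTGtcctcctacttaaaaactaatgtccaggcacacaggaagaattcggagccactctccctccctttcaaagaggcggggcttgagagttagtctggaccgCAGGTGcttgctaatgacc
Cmas, chr6:142756436-142756685, plus strand: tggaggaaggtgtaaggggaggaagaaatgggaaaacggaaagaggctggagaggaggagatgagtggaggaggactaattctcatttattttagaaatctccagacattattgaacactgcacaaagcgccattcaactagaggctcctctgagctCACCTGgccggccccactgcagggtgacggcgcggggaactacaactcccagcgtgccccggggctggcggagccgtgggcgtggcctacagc
Cmah, chr13:24327154-24327403, plus strand: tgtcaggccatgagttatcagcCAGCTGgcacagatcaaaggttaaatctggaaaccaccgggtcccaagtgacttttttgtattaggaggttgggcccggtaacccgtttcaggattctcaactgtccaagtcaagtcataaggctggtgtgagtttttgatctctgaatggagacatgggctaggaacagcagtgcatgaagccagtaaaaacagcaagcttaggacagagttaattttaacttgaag
St8sia4, chr1:95667595-95667844, minus strand: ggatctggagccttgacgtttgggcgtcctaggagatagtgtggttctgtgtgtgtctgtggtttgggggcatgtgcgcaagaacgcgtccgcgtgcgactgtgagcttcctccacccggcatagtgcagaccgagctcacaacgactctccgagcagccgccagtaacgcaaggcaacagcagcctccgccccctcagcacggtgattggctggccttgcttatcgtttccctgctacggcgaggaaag
St8sia1, chr6:142964453-142964702, minus strand: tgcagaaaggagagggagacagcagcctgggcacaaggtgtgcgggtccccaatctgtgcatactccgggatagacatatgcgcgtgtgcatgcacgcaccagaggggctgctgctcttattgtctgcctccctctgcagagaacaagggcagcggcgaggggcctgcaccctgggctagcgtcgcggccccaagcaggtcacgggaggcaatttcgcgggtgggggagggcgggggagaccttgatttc

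Gne held 3 matches, Cmas 1 and Cmah 1, and the windows of St8sia4 and St8sia1 held none. Over all genes, 27.4% of 27025 such windows held at least 1 match to either core, and 6 of the 21 members with a RefSeq window did. None of the 5 windows overlapped an annotated exon in GENCODE. A match describes letters only, and which start the cells use was not read here.

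Microglia carried the highest St3gal6, which places alpha-2,3 sialic acid on galactose, at 149 ± 39.9 CPM (n = 6), apart from NK cells at 47.8 ± 10.8. Neu1, the lysosomal sialidase, was at 87.2 ± 18.9 CPM in microglia and 64.1 ± 6.81 in monocyte-derived cells, and both overlapped each other while the second lay apart from mo-DCs at 31.2 ± 5.34. St6galnac4, which extends sialylated O-glycan cores, was at 79.9 ± 28 CPM in microglia, overlapping NK cells at 74.3 ± 26.2. St3gal4 was low in microglia (7.02 ± 6.71 CPM) and highest in mo-DCs (89.7 ± 13.8), which overlapped plasmacytoid dendritic cells (68.3 ± 13.7).

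The dendritic cell names split several members. St3gal5, the synthase of ganglioside GM3, was at 109 ± 6 CPM in cDC1 and 16.7 ± 6.26 in cDC2 (n = 7 each), and its 7 cDC1 values, 100 to 119, lay above all cDC2 values, 8.83 to 27.8. St8sia4, St3gal3 and Nans went the opposite way. St8sia4 was at 125 ± 14.6 CPM in cDC1 and 300 ± 41.8 in cDC2, St3gal3 at 17.6 ± 3.17 and 126 ± 19.0, and Nans at 62.4 ± 10.8 and 138 ± 16.3, with no overlap between mice for any of them.

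B cells held the highest St6gal1, the enzyme for alpha-2,6 sialic acid on galactose and thus for the ligands of CD22, at 82.9 ± 26.8 CPM (n = 6), overlapping the next class. They also held the highest St8sia6, an alpha-2,8 sialyltransferase, at 49.5 ± 15.4 CPM. St6galnac3 was mostly a T cell transcript, at 26.2 ± 7.97 CPM, with 0 UMIs in microglia, plasmacytoid dendritic cells and tumour or stromal cells. Neu3, the sialidase of the plasma membrane, was at 6.37 ± 0.912 CPM in T cells, apart from plasmacytoid dendritic cells, the next class, at 1.54 ± 1.63. The highest microglia mouse, at 5.36 CPM, equalled the lowest T cell value.

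T cell names differed in which linkage genes they carried. St6gal1 was at 59.7 ± 15.5 CPM in Th1-named CD4 cells (n = 6) and 42.2 ± 16.5 in those named Tfh, but at 3.79 ± 5.73 in exhausted CD8 cells, where 11 UMIs were seen in all. St3gal6 had the reverse order, with 44.6 ± 23.4 CPM in precursor-exhausted CD8 cells (n = 7) and 2.84 ± 2.18 in Th1-named cells. Cmah stood at 23.0 ± 15.7 CPM in naive or early activated CD8 cells and at 1.28 ± 0.756 in precursor-exhausted ones, and the lowest mouse of the first (12.8 CPM) lay above the highest of the second (2.38 CPM). Gamma-delta T cells, with 219 cells and 4 mice above the minimum, had St6galnac3 at 121 ± 35.1 CPM and St3gal3 at 172 ± 92.0. In 1 library, WT replicate 1, gamma-delta cells were 25.7% of the T cells, against 0.290% to 4.40% in the others, which bears on any sum over its T cells.

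**Figure D2:**
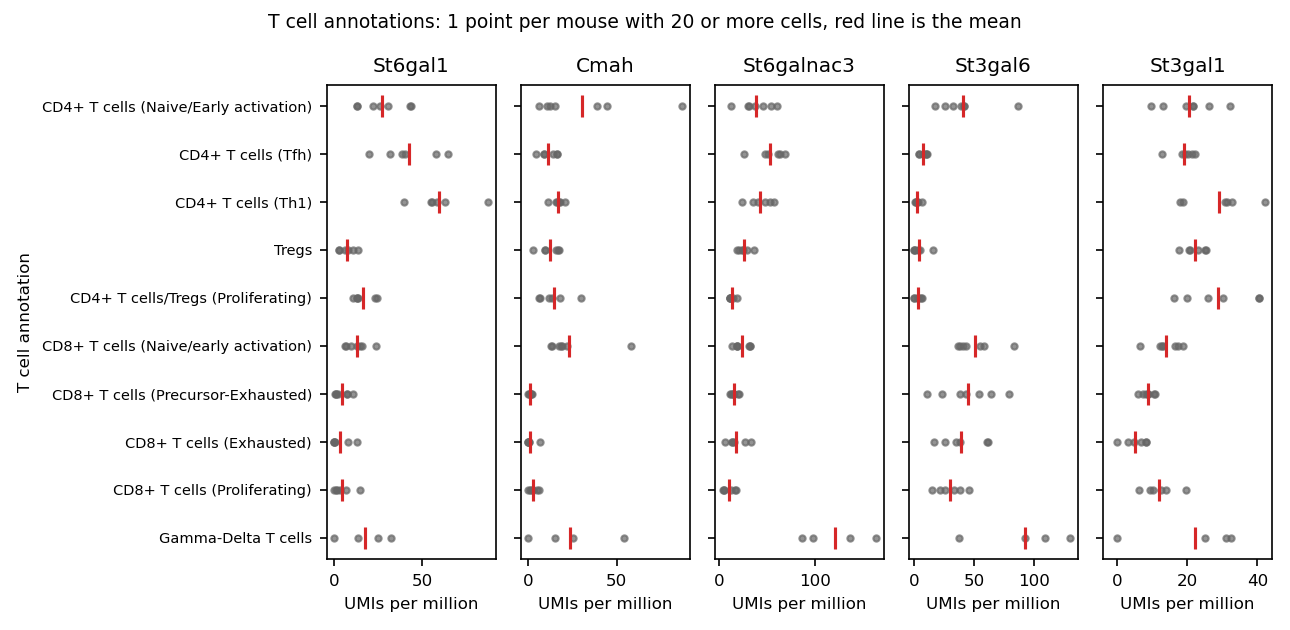
CPM of St6gal1, Cmah, St6galnac3, St3gal6 and St3gal1 (panels, horizontal axes) in the 10 T cell annotations (vertical axis). Each grey point is 1 mouse with at least 20 cells and the red line is the mean. St6gal1 is highest in Th1 and Tfh names and St3gal6 in CD8 and gamma-delta names.

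Tumour or stromal cells were compared with all immune cells of the same mouse in the 5 mice with at least 20 tumour or stromal cells (KO replicates 2 and 4, WT replicates 1 to 3), to see which sialic acid genes the tumour fraction carries. Sums per mouse were fitted with edgeR's quasi-likelihood test with a term for mouse, and p-values were adjusted by Benjamini-Hochberg over 16897 genes. Since the names are taken to rest on the expression of the same cells, these p-values describe how repeatable a difference was over mice. Of 23 members tested, 2 were higher and 16 lower in tumour or stromal cells, where 28.6% of all genes tested were called higher and 41.8% lower. The median log2 fold change was -0.87 over the members and -0.25 over all genes. With TMM, 4827 genes were higher and 7061 lower. With library size alone the median over all genes was 0.39, 7659 genes were higher and 4641 lower, and 4 members were higher and 9 lower. The same 2 members higher and 9 members lower were called under all 4 scalings run (TMM, RLE, library size and DESeq2), and directions are named below for these only. Among the lower ones, St6galnac3 and St8sia6 had 0 tumour UMIs, and Cmah and St8sia1 had 1 each. These members passed the filter on low counts through the immune sums alone, so they could only be called lower. Their calls add nothing to the counts of UMIs. The immune sum mixes classes in each mouse's own proportions.

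St8sia4, the polysialyltransferase, was near 0 in the cells that held most Ncam1, the main protein that carries polysialic acid. St8sia4 in tumour or stromal cells was at 0.983, 2.52, 0.955, 2.69 and 0.420 CPM (KO replicates 2 and 4, then WT replicates 1 to 3), and in immune cells of the same mice at 91.2, 89.1, 94.6, 97.2 and 58.6 CPM. The groups lay far apart, with a log2 fold change of -6.56 (SE 0.23) and an adjusted p of 1.78e-11 in edgeR. Over the alternatives run, the log2 fold change lay between -6.89 and -3.56. Microglia alone had St8sia4 at 17.7 ± 15.1 CPM, and their lowest mouse (2.65 CPM) overlapped the highest tumour or stromal value. Pooled UMIs, pooled CPM and ratios here and below are over all 7 mice, including KO replicates 1 and 3, which the fit left out (17 and 1 tumour or stromal cells). In all, 11 tumour UMIs stood against 17213 immune ones, a ratio of 0.0147 (0.00735 to 0.0264). In the same tumour cells 5 pan-immune genes stood at 1.83% to 3.38% of their immune level, and the part of immune RNA in the St8sia4 UMIs was not tested. St8sia2, the other polysialyltransferase, had 0 UMIs, which allows up to 0.347 CPM in these cells. Ncam1 had 776 UMIs in tumour or stromal cells and 85 in immune cells, 89.7 against 0.427 CPM and a log2 fold change of 6.80 (SE 0.21). Nrp2, another carrier, was also higher, by 1.52 on the log2 scale (SE 0.27), with 710 UMIs against 3428. Against microglia or monocyte-derived cells alone it was at 0.17 and 0.06 and not called. Cadm1, the last listed carrier, was lower, with 6 UMIs against 5470, so it lay with St8sia4 in the immune cells.

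The other alpha-2,8 enzymes tested and Cmah had at most 1 UMI in tumour or stromal cells. Cmah had 1 UMI against 1865 (ratio 0.0124, 0.000313 to 0.0689), St8sia1 had 1 against 1167 (ratio 0.0197, 0.000499 to 0.11) and St8sia6 had 0 against 732. The immune level of St8sia6 varied between mice, at 0.523, 6.06, 1.77, 10.8 and 0.351 CPM, and B cells of WT replicate 2 alone gave 312 of the UMIs, so no fold is given. St6galnac3, with 0 against 1907 UMIs, was at least 27.6-fold higher in the immune sum, taking 3 UMIs over the tumour cells as the floor. T cells gave 1779 of these UMIs, and microglia and plasmacytoid dendritic cells also had 0. Low levels of the others were not particular to tumour or stromal cells either. Mean Cmah was 0.537 to 1.37 CPM in conventional dendritic cells, microglia, monocyte-derived cells and mo-DCs. Mean St8sia1 was 0.0315 CPM in B cells and 0.103 in NK cells. When the 80 tumour cells with a UMI of Ptprc (CD45) were left out, 7 St8sia4 UMIs, 1 of Cmah and 1 of St8sia1 remained.

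Among the alpha-2,3 enzymes St3gal6 was lowest in the tumour fraction relative to immune cells, at 2.46, 1.68, 2.87, 0 and 0.420 CPM against 19.5, 19.8, 17.0, 13.9 and 13.8 (log2 fold change -4.25, SE 0.35). Its pooled ratio, 0.0643 (0.0332 to 0.112), lay near or above that of the pan-immune genes. In conventional dendritic cells St3gal6 was at 1.79 ± 0.48 CPM, which overlapped tumour or stromal cells (1.49 ± 1.25). St3gal4 was at 28, 20.2, 21.0, 24.2 and 18.1 CPM against 39.6, 37.7, 38.6, 35.5 and 31.7, lower in 5 of 5 mice with no overlap (-1.35). St3gal1 was lower in 5 of 5 mice (19.2, 17.7, 22.9, 19.5 and 20.6 CPM against 20.7, 20.6, 39.4, 28.8 and 28), although the groups overlapped (-1.06). St3gal2, which sialylates O-glycan cores and gangliosides, went the other way. It had 219 UMIs against 1387, 25.3 against 6.96 CPM, higher in 5 of 5 mice (1.19, SE 0.17, adjusted p = 3.11e-05 in edgeR). Against microglia alone St3gal2 was at 0.01, St3gal4 was at 0.90 and St3gal1 at 0.24, none of them called. St3gal5 did not pass (-0.25, adjusted p = 0.254 in edgeR). Against T cells alone it was higher in tumour cells (3.34), and against microglia alone lower (-1.46).

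Slc35a1, the CMP-sialic acid carrier, was the other member called higher. It was at 26.5, 20.2, 25.8, 26.2 and 22.7 CPM in tumour or stromal cells and at 10.9, 9.90, 9.78, 9.26 and 10.1 in immune cells, with no overlap (0.64, SE 0.16, adjusted p = 0.00273 in edgeR). Against microglia alone it was at 0.36 and not called. Neu1 was lower, at 17.2, 12.6, 16.2, 24.2 and 23.9 CPM against 31.6, 26.9, 51.0, 34.0 and 38.2 (-1.54). The call also held against microglia (-2.17), monocyte-derived cells (-2.56) and T cells (-0.62) taken alone. Other classes were not run as comparators. Neu1 in NK cells (17.3 ± 7.67 CPM) and conventional dendritic cells (17.2 ± 2.36) overlapped that in tumour or stromal cells (18.8 ± 5.07).

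7 members were called lower with TMM but not with library size alone. Cmas is the clearest case, at 64.4, 59.7, 54.4, 57.1 and 47.0 CPM in tumour or stromal cells against 52.5, 50.5, 47.8, 51.5 and 45.2, higher in CPM in 5 of 5 mice, yet -0.45 with TMM and 0.18 with library size. Nans was at 56.0, 48.8, 53.5, 67.2 and 55.8 CPM against 60.5, 71.2, 53.1, 72.6 and 69.4, and Gne at 13.3, 10.1, 13.4, 6.05 and 6.72 against 17.1, 17.6, 8.63, 16.6 and 10.3. St6galnac4 was at 37.4, 33.6, 34.4, 39.6 and 27.3 CPM against 43.9, 33.9, 33.7, 33.9 and 35.4. St6gal1 was at 13.3, 9.25, 17.2, 13.4 and 10.5 CPM against 10.6, 15.6, 13.4, 24.6 and 12.8, and St3gal3 at 22.1, 22.7, 22, 8.06 and 15.5 against 21.0, 18.5, 23.2, 20.7 and 14.7. These groups overlapped for each of the 6. Neu3, the seventh, had 7 UMIs against 575. Nanp, the phosphatase of the synthesis route, went the other way. It was at 6.88, 7.15, 13.4, 7.06 and 7.14 CPM in tumour or stromal cells against 3.91, 3.24, 3.57, 3.89 and 3.23, with no overlap, yet it was not called with TMM (0.50, adjusted p = 0.0932 in edgeR) and was called higher with library size alone (1.14, adjusted p = 0.00138). Siae was at -0.02 with TMM and was called higher with library size alone (0.62, adjusted p = 0.021 in edgeR). St6galnac6 and St6galnac2 were not called under either.

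**Figure D3:**
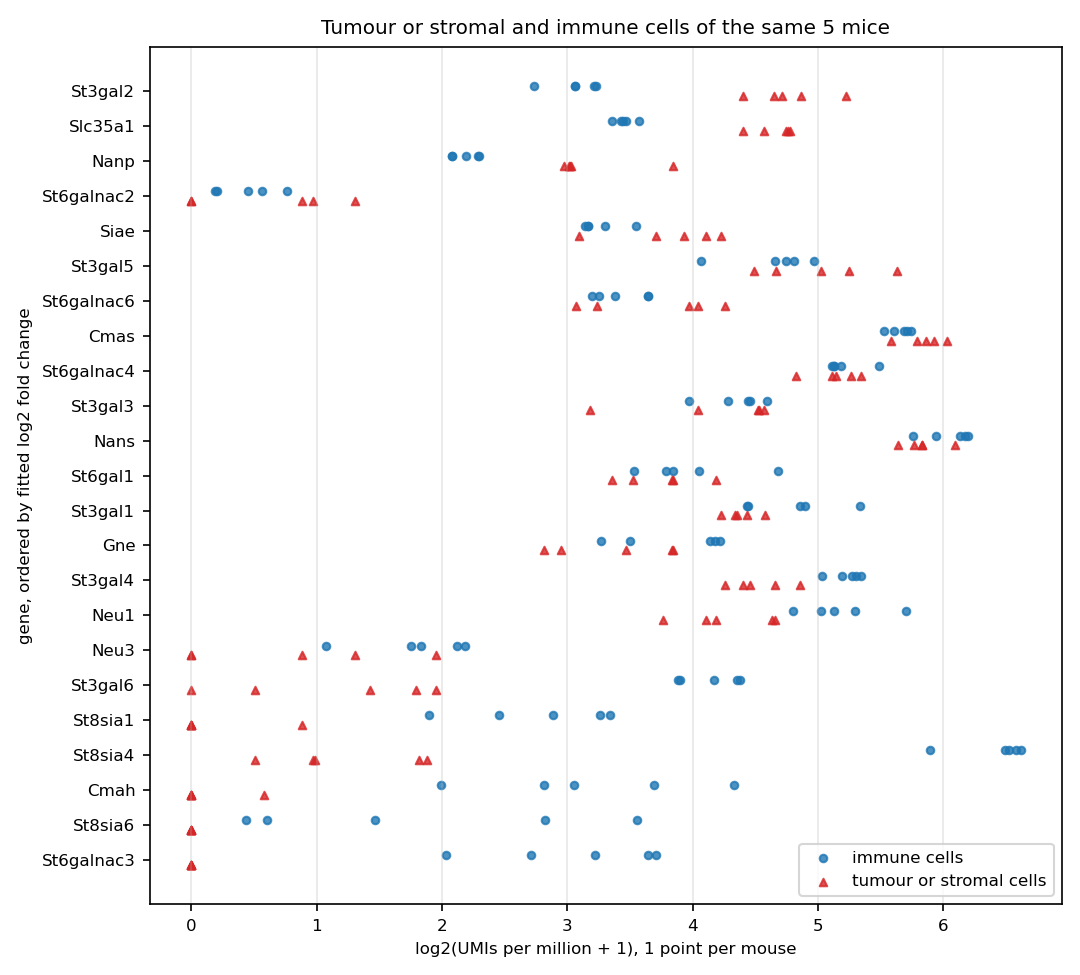
The 23 members tested (vertical axis), ordered by fitted log2 fold change, with log2(CPM + 1) on the horizontal axis. Blue circles are immune cells and red triangles tumour or stromal cells of the same 5 mice, 1 point per mouse. St8sia4, St3gal6, Cmah, St8sia1, St8sia6 and St6galnac3 sit far to the left in tumour or stromal cells, and St3gal2 and Slc35a1 to the right.

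The other listed genes of the pathway gave counts in both directions. Counts here stand beside 28.6% of all genes called higher and 41.8% lower, and the share of all genes called under all 4 scalings was not computed. Of 15 genes that build the acceptor chains, 1 was called higher and 9 lower, and under all 4 scalings 1 and 8. Mgat4b, which branches N-glycans, was higher by 1.46 on the log2 scale, while B4galnt1, the GM2 and GD2 synthase, was lower (-2.80), as was B4galt1 (-1.60). Of 7 turnover genes, Slc17a5, the lysosomal sialic acid exporter, was higher (1.24, but 0.59 and not called against microglia alone) and 5 were lower (4 under all 4 scalings), among them Gm2a (-4.51), an activator of ganglioside breakdown. Of 6 precursor supply genes tested, Renbp was higher (0.77) and 3 were lower, none of these 3 under all 4 scalings. Renbp was lower than in monocyte-derived cells taken alone (-0.56).

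KO was compared with WT within each class, to see whether sialic acid genes differed in microglia, where the Cre is meant to act, and in the cells around them. Siglece in KO over WT was 1.01 in monocyte-derived cells (0.927 to 1.10; 862 and 1511 UMIs) and 0.829 in mo-DCs (0.742 to 0.926), so a loss like that of microglia was not seen in those classes. In edgeR, with adjustment over all genes of a class, 0 members were called in any of the 9 classes. The tests covered 21 members in T cells, 18 in conventional and 14 in plasmacytoid dendritic cells, 17 in monocyte-derived cells, 16 in mo-DCs, 15 in tumour or stromal cells, 9 each in B and NK cells and 7 in microglia. Few genes of any kind were called: 0.0415% in microglia, 0.0450% in plasmacytoid dendritic cells, 0.0141% in NK cells, 0.0288% in tumour or stromal cells and 0 in the other 5 classes. At an unadjusted p under 0.05 the members numbered 0 in microglia and B cells, 1 each in monocyte-derived cells, conventional dendritic cells, NK cells and tumour or stromal cells, 2 each in mo-DCs and plasmacytoid dendritic cells and 3 in T cells. The share of all genes at that unadjusted threshold is not given here, so these counts say nothing particular about the members. DESeq2 also called 0 members. In the 21 of 23 annotation values with enough mice, 0 members were called. The names left unfitted were Microglia, the main microglia name, and gamma-delta T cells, so neither was tested by itself. Of all genes, 0.213% were called in low-quality or activated microglia, 0.0494% in proliferating CD4 or Treg cells, 0.0411% in Tregs, 0.0326% in Th1, 0.0241% in naive CD8, 0.0188% in P5 macrophages, 0.0135% in exhausted CD8 and 0.0114% in Tfh cells. Likewise, 0 of the 32 other pathway genes were called in any class or annotation value that was fitted. With 3 or 4 mice against 3, or 2 against 3 for tumour or stromal cells and low-quality or activated microglia, modest changes can be missed. Tregs and the Tfh, Th1, exhausted CD8 and both proliferating T cell names were fitted on 4 KO against 2 WT mice.

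In monocyte-derived cells St8sia4 was at 49.4, 52.5, 69.4 and 53.5 CPM in KO and 38.6, 40.2 and 37.5 in WT, with no overlap, where 6.23% of genes tested did not overlap. The log2 fold change was 0.54 (SE 0.13), with an adjusted p of 0.827 in edgeR (0.00284 unadjusted), so it did not pass. Within names it was 0.52 in P3 macrophages, 0.59 in P5 macrophages, 1.22 in proliferating macrophages and 0.33 in P1-P2 monocytes, none of which passed. In plasmacytoid dendritic cells it was at 991, 850, 792 and 840 CPM in KO and 734, 696 and 625 in WT (0.34, adjusted p = 0.676 in edgeR, 6.74% of genes not overlapping). The 6 plasmacytoid markers summed to 11504.8 to 12653.9 CPM in these KO cells and 13981.9 to 14894.4 in WT, with 1 of 6 higher in KO and none at 0, and their part was not tested. In cDC1, cDC2 and mo-DCs the values were -0.05, 0.12 and -0.01. Sums of marker lists named for other cells differed too. The 7 T cell markers summed to 46.3 to 72.6 CPM in KO monocyte-derived cells and 14.4 to 32.7 in WT, against 3155.2 to 5222.8 in T cells, where St8sia4 was at 54.3 ± 15.7 CPM. All 7 were higher in KO and none was at 0. The 6 plasmacytoid markers summed to 462 to 868 CPM in KO and 951 to 1188.4 in WT, with 3 of 6 higher in KO and none at 0. Over all monocyte-derived cells Bst2 was at 817 CPM and Tcf4 at 95.4. The other genes of that list were at 5.52 or less, so the sum is no measure of plasmacytoid cell RNA. The part of either list in the St8sia4 values was not tested.

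St8sia6 transcripts were seen in KO microglia and hardly in WT microglia. This enzyme adds alpha-2,8 sialic acid and has been described in mice as a maker of Siglec-E ligands. The gene was singled out after its values were seen, and it fell below the filter on low counts, so the fit above did not test it. KO microglia had 8, 2, 2 and 5 UMIs (30, 21, 13 and 49 cells; 42.9, 39.1, 54.2 and 27.8 CPM) and WT microglia 0, 1 and 0 (113, 92 and 96 cells; 0, 2.42 and 0 CPM). With the KO mouse of 13 cells included, that is 41.0 ± 10.9 CPM (n = 4) against 0.805 ± 1.39 (n = 3). All 4 KO mice lay above all WT mice. Among genes that passed the filter, 18.8% did not overlap between the 3 KO and 3 WT mice with at least 20 microglia, a share over other mice and genes than this one. Pooled over mice, KO stood 50.3 times above WT (7.88 to 2102.1 from counting). Without WT replicate 1 this was 29.6, without WT replicate 2 the WT sum was 0, and in cells named Microglia only it was 19.9. The UMIs came from 16 of 113 KO cells (14.2%, exact binomial interval 8.32% to 22%) and 1 of 301 WT cells (0.332%, 0.00841% to 1.84%), at a median of 3046.0 and 3075.0 UMIs per cell, with at most 2 in a cell. These intervals pool the cells of several mice, cover counting error only and are no test of the genotype. Of these 16 cells, 11 were among the 81 named low-quality or activated and 5 among the 32 named microglia, while WT had 170 and 131 cells of these names, and all 16 had a UMI of a microglia marker. A B cell marker UMI was present in 6 of the 16 and a T cell marker UMI in 3, and over all microglia a B cell marker UMI was present in 27 of 113 KO and 86 of 301 WT cells. In other classes the share of cells with a St8sia6 UMI in KO and WT was 0.283% and 0.293% in T cells (4773.0 and 4640.0 UMIs per cell), 0.257% and 0.168% in monocyte-derived cells, 0.281% and 0 in NK cells, 0.275% and 0.735% in conventional dendritic cells, 2.80% and 4.01% in mo-DCs, 1.63% and 2.99% in plasmacytoid dendritic cells and 29.8% and 34.1% in B cells. The part of free RNA was not tested.

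Fitted without the filter on low counts, St8sia6 in microglia had a log2 fold change of 4.86 (SE 0.96) and an adjusted p of 0.0007 in edgeR. The gene was picked from these same values, so this fit restates them and is no independent support. St8sia6 also passed the filter in fits with a replicate block and with sex as a covariate, where the adjusted p was 0.560 and 0.125 and it was not called. B cells have the highest St8sia6, and the B cell marker Ms4a1 was at 0 in microglia of both genotypes. Cd79a was at 0 in KO and 1.49 CPM in WT, Cd79b at 17.6 and 19.3, and Ighm at 83.6 and 73.6. In mice with at least 20 microglia the T cell markers summed to 69.7 to 137 CPM in KO and 12.6 to 38.6 in WT, 6 of 7 higher in KO and none at 0, and 3 oligodendrocyte markers summed to 37.5 to 61.1 and 23.9 to 30.7. The part of B cell, T cell or oligodendrocyte RNA in the St8sia6 values was not tested. With all cells that held a B or T cell marker UMI left out, 8 UMIs in KO and 1 in WT remained. The ratio was then 26.9 (3.61 to 1194.9). This split was chosen after the values were seen and is no test of where the UMIs came from. In B cells themselves the pooled KO over WT ratio was 1.04 (0.870 to 1.23) and in T cells 1.11 (0.520 to 2.64). The B cell ratio rests mainly on 1 mouse per genotype. KO replicate 4 gave 189 of 226 KO UMIs, and WT replicate 2 gave 312 of 333 WT UMIs. The difference of the genotype effect between microglia and monocyte-derived cells was 4.69 on the log2 scale (SE 1.69, adjusted p = 0.237 in edgeR). 0 of 19 members passed that comparison, in which 0.414% of all genes did, and 3 members had an unadjusted p under 0.05. The share of all genes at the unadjusted threshold is not given here, so the 3 are not read as a result.

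**Figure D4:**
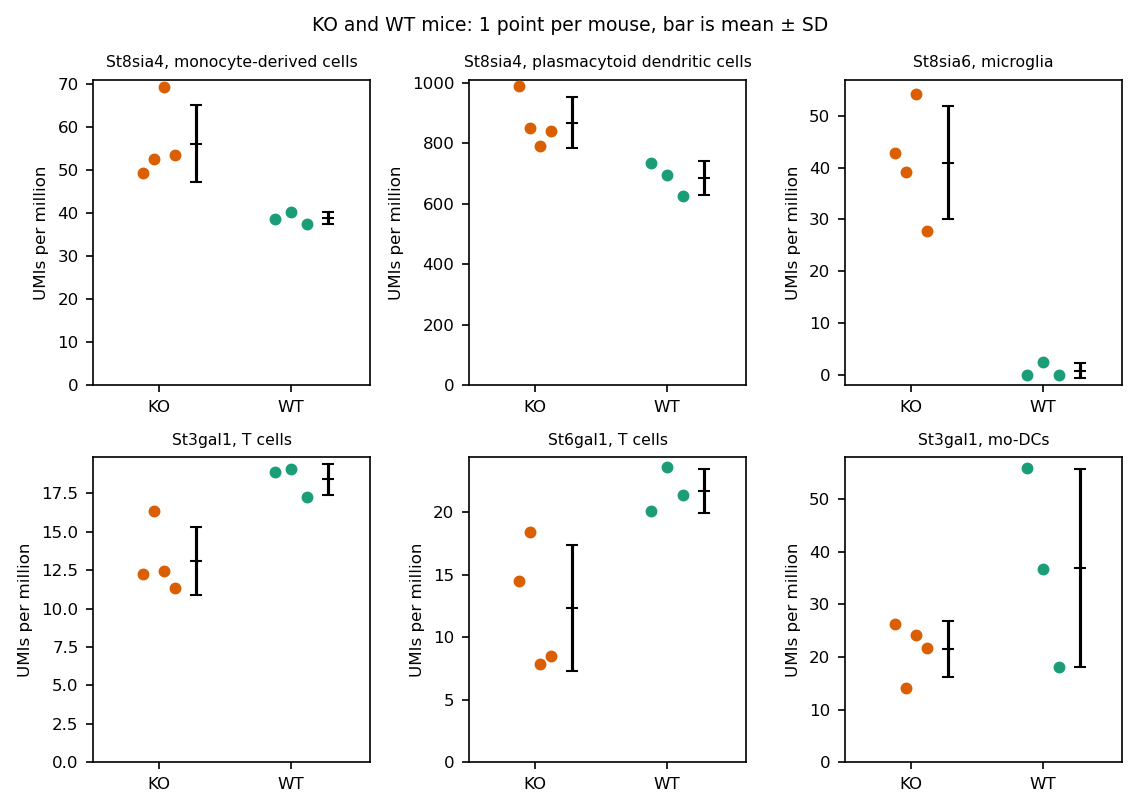
CPM (vertical axes) in KO and WT mice for St8sia4, St8sia6, St3gal1 and St6gal1 in the class named above each panel. Points are mice and bars are mean ± SD. The 4 KO values of St8sia6 in microglia, 27.8 to 54.2, lie above the WT values of 0 to 2.42, and St3gal1 in mo-DCs overlaps between genotypes.

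In T cells the 2 members without overlap were lower in KO, where 7.28% of genes tested did not overlap. St3gal1, which caps core 1 O-glycans of T cells, was at 12.2, 16.4, 12.5 and 11.4 CPM in KO and 18.9, 19.1 and 17.2 in WT (-0.45, SE 0.17, adjusted p = 0.722 in edgeR). St6gal1 was at 14.5, 18.4, 7.88 and 8.52 CPM in KO and 20.1, 23.6 and 21.4 in WT (-0.80, SE 0.30, adjusted p = 0.722). Neither passed. Sums of marker lists named for other cells were also lower in KO T cells, without overlap. The 8 conventional dendritic markers summed to 80.9 to 224 CPM in KO and 225 to 355 in WT (0 of 8 higher in KO), and the 6 plasmacytoid markers to 142 to 193 and 218 to 461 (2 of 6 higher), with none at 0, and their part was not tested. Over all T cells, Ccr7 (137 CPM) and Itgae (22.5) were highest in the conventional dendritic list and Bst2 (171) in the plasmacytoid list. The other genes of both lists were at 9.73 CPM or less, so these sums are no measure of dendritic cell RNA. CD4 or Treg names, which include the Th1 and Tfh names with the highest St6gal1, differed in share between mice. They made up 43.4%, 36.5%, 21.4% and 36.1% of the T cells in KO and 33.8%, 63.3% and 38.5% in WT. The part of this make-up in the St6gal1 values was not tested. Within the T cell names that could be fitted, St6gal1 was between -0.27 and -0.77 and St3gal1 between -0.50 and 0.20. St3gal1 in mo-DCs was at 26.4, 14.1, 24.2 and 21.7 CPM in KO and 55.9, 36.7 and 18.2 in WT, which overlapped (-0.88, adjusted p = 0.608 in edgeR). Without the filter on low counts it was called (adjusted p = 0.00354 in edgeR), and without WT replicate 1 the value was -0.47. In these mo-DCs the 7 T cell markers summed to 54.4 to 209 CPM in KO and 16.8 to 47.7 in WT (7 of 7 higher in KO), and the 6 plasmacytoid markers to 491 to 620 and 723 to 1223.8 (2 of 6 higher), with none at 0, and their part was not tested. In the plasmacytoid list Bst2 was at 567 CPM and Tcf4 at 95.2 over all mo-DCs, and the other genes were at 22.1 or less.

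In tumour or stromal cells 4 members of 15 did not overlap, where 25.2% of genes tested did not overlap with 2 mice against 3. St3gal5 was at 48.7 and 37.0 CPM in KO and 31.5, 21.5 and 24.4 in WT (0.77, SE 0.24, adjusted p = 0.379 in edgeR). Cmas and St3gal3 values also lay above those of WT, and St3gal1 values below, none called. The 5 pan-immune markers summed to 153 to 171 CPM in KO and 46.4 to 136 in WT tumour cells, 4 of 5 higher in KO and none at 0. The 7 T cell markers summed to 52.1 to 82.8 CPM in KO and 3.82 to 8.40 in WT, and the part of either list was not tested. In microglia every one of the 7 members tested overlapped between genotypes. Of 21 other pathway genes tested there, 4 did not overlap, against 18.8% of all genes tested. Ugcg, the glucosylceramide synthase, lay above WT in KO microglia (0.95, SE 0.28, adjusted p = 0.140 in edgeR), and Hexa, B4galt3 and Npl lay below, none called.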

How the data were processed

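The deposited matrix holds expected counts (UMIs per gene and cell, 7.51% of the non-zero values not whole), and the deposited cell table holds counts of genes per cell and percent of mitochondrial and ribosomal UMIs. Per the submitters' processing notes, FastQC 0.11.5, STAR 2.7.10a, STARsolo and mm10 were used. The gene annotation, the cell filters, doublet handling and the origin of the cell names are not given in the sources used here, and no doublet caller was run. For Nanp, non-whole values made up 66.6% of the UMIs. St6galnac2 has 2 rows with overlapping loci, kept apart. Replicates are separate mice per the labels.

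UMIs were summed per mouse and class or annotation value with at least 20 cells and rounded. This left out KO replicate 3 in microglia, KO replicate 1 in B cells, and in tumour or stromal cells both of these mice. Sums were fitted in edgeR 4.0.16 (limma 3.58.1, R 4.3.3) with TMM, filterByExpr and robust quasi-likelihood dispersions. A gene was called where its p, adjusted by Benjamini-Hochberg, was under 0.05. SE is the log2 fold change divided by the root of F. Alternatives were RLE, library size, no filter, DESeq2 1.42.0, whole values only, at least 10 cells, each mouse left out, a replicate block, sex as a covariate and other comparators. The scripts were tested on simulated data. Members, gene lists and tests were chosen with earlier results of these data known. Named in every mouse are members called in any fit (up to 12, most UMIs first), the member with most UMIs in each role, and members tested that do not overlap between genotypes in microglia, monocyte-derived cells and T cells; St8sia6 and the values within annotation names were chosen after they were seen. Sequences are RefSeq's. Replicate numbers were not taken to pair the mice in the main fits. Deviations of same-numbered mice correlated between -0.21 and 0.13, which with so few pairs cannot show that they were unpaired.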

Additional observations from a re-analysis of the deposited data

Results flagged for a closer look

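Of 70 groups of 4 or 5 mice whose values were checked, 6 had 1 mouse far from the others by Dixon's rule. The nominal rate of about 1 in 20 is for independent normal values. These are counts that share mice, so the number flagged shows no excess. Immune cells of WT replicate 3 had the lowest St8sia4 of the 5 mice, at 58.6 CPM, and the lowest Slc17a5, at 7.75 CPM. Immune cells of KO replicate 2 had the highest St6galnac4, at 43.9 CPM. In tumour or stromal cells, Nanp of WT replicate 1 was at 13.4 CPM, and the only St8sia1 UMI (0.841 CPM, KO replicate 4) and the only Cmah UMI (0.492 CPM, KO replicate 2) each stood alone against 0 in the other mice. The rule always flags a single value against zeros.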

How the results depend on the processing

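Of the main counts under each alternative, 210 stayed within 1.5 times and 10 moved. The main counts for KO against WT and for the genotype effect were all 0, and most of the 210 are such counts that stayed at 0. The tally is therefore no measure of how stable the calls are. Without the filter on low counts, KO against WT called 2 members over the classes, 1 in microglia (St8sia6) and 1 in mo-DCs (St3gal1, adjusted p = 0.00354 in edgeR), and 1 over the annotation values. The share of all genes called in these unfiltered fits is not given here. For tumour or stromal cells, library size alone called 4 members higher and 9 lower, and over all genes 7659 higher and 4641 lower. Against microglia alone 7 members were called, 0 higher and 7 lower (all genes lower, 3268), against monocyte-derived cells 9 were lower, and against T cells 4698 genes were lower. Directions turned against microglia for St3gal1 (0.24), St3gal4 (0.90), Gne (0.62), Nans (0.39) and Renbp (-0.05), against monocyte-derived cells for St3gal5 (0.79), Gne (0.17) and Renbp (-0.56), and against T cells for St3gal5 (3.34) and Siae (0.27). With library size alone they turned for St3gal5 (0.39), St6galnac6 (0.37), Siae (0.62) and Cmas (0.18). Siae, near 0 in the main comparison, was 0.07 with no replicate block and between -0.15 and 0.18 with 1 mouse left out (0.04, 0.06 and 0.18 without WT replicates 1, 2 and 3), and St6galnac2 was between -0.07 (without WT replicate 3) and 0.70. The cause was not tested. Leaving out 1 mouse at a time gave 18 to 19 members called in tumour or stromal cells, 2 to 2 higher and 16 to 17 lower, and 0 to 0 for KO against WT and for the genotype effect between microglia and monocyte-derived cells. The St8sia6 ratio in microglia was 29.6 to 58.8 with 1 mouse left out, had no value without WT replicate 2 (WT then at 0), and was 26.9 without cells holding a B or T cell marker and 19.9 (5 against 1 UMIs) in cells named Microglia only, the last 2 chosen after seeing the data.

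With the replicate number as a block, 0 members were called for KO against WT in any class that could be fitted. The tumour comparison with no replicate block called 3 higher and 15 lower. Microglia (454659 UMIs in KO) limit what depth can show, since a gene below the filter there is untested rather than unchanged.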
